A study of Mus musculus with 6 samples.

Results

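The laminins and the basement membrane proteins that they assemble with were measured in stria vascularis, the ion-transporting epithelium of the lateral wall of the mouse cochlea. The 10 genes chosen were Lama2, Lama4, Lama5, Lamb1, Lamb2, Lamc1, Nid1, Nid2, Agrn and Hspg2, and every probe set that the platform annotation assigned to one of these symbols was taken, which gave 21 of the 45037 probe sets and 10 of the 18193 genes with a symbol of their own. Total RNA from adult Slc26a4-/- mice, which lack a functional gene for the anion exchanger pendrin, was compared with RNA from adult Slc26a4+/+ mice, on 3 Affymetrix mouse expression arrays of each genotype. The deletion is present in the whole body and not only in the stria, the RNA for each array was pooled from a pair of animals, and the animals were not perfused, so that blood remained in the capillaries.

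A basement membrane is a thin sheet of extracellular matrix on which epithelial, endothelial, muscle and Schwann cells rest. Its laminin network is built from trimers of an α, a β and a γ chain, its type IV collagen network is linked to the laminins by nidogens, and the heparan sulfate proteoglycans perlecan and agrin bind to both networks and to receptors of the cell surface. In the adult stria vascularis basement membranes surround the capillaries that run between the marginal, intermediate and basal cells.

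The deposited values were signal intensities, in arbitrary units, with a mean over all probe sets of 669, 671 and 667 on the Slc26a4-/- arrays, against 666, 697 and 725 on the Slc26a4+/+ arrays. For each array, background was defined by 44 probe sets for olfactory receptors, which are expressed mainly in the nose, as their 95th percentile. It was 187, 204 and 214 on the Slc26a4-/- arrays, against 200, 269 and 319 on the Slc26a4+/+ arrays, so that dim probe sets were harder to detect in Slc26a4+/+. Slc26a4 itself gave 520.2, 716.8 and 618.5 on the Slc26a4-/- arrays, against 1353.8, 1262.1 and 793 on the Slc26a4+/+ arrays (limma, adjusted p = 0.119), and the sources do not say whether its probes fall within the deletion, so it does not check the labels. The Y-linked Eif2s3y was between 3.1 and 3.6 on the Slc26a4-/- arrays and between 640 and 1541 on the Slc26a4+/+ arrays, so sex and genotype cannot be told apart. Xist, used below as a covariate for sex, was between 5530 and 5863 on the Slc26a4-/- arrays and between 771 and 3358 on the Slc26a4+/+ arrays. It did not overlap between genotypes, so a fit with Xist cannot separate sex from genotype either. None of the 10 genes lies on a sex chromosome, which does not separate sex from genotype for them. Of the other basement membrane genes and receptors measured, Col4a5, Col4a6 and Dmd do lie on one. The 3′ to 5′ ratio of the Gapdh control probe sets, a measure of RNA integrity and amplification, was 3.70, 3.80 and 3.34 on the Slc26a4-/- arrays, against 2.25, 7.19 and 10.5 on the Slc26a4+/+ arrays. The defining markers of intermediate cells (Tyr, Dct, Kcnj10, Met) and basal cells (Cldn11, Gjb6, Tjp1) and 5 of 6 of marginal cells were above background on all 6 arrays.

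Among the laminins, 1 probe set of Lamb1, which encodes the laminin β1 chain, was lower in Slc26a4-/- than in Slc26a4+/+. For Lama4, which encodes the laminin α4 chain of blood vessels, 1 probe set was higher, with signals below background on all Slc26a4+/+ arrays. These were 2 of the 21 probe sets, 1 lower and 1 higher, at an adjusted p under 0.05 (limma with Benjamini-Hochberg adjustment over all 45037 probe sets). Over the whole array 1.19% of probe sets were called higher and 0.54% lower in Slc26a4-/-, and with each array centred on its median the calls over the whole array were 359 higher and 89 lower, against 535 and 243 without centring. At an unadjusted p under 0.05 there were 5 of the 21 probe sets, against 11.9% of all probe sets. By a ratio of mean signals beyond 1.3, with no test, 3 of the 21 were higher and 6 lower, against 16.2% and 27.1% of all probe sets. The median log2 fold change (Slc26a4-/- over Slc26a4+/+) was -0.068 over the 21 probe sets and -0.064 over all probe sets. All 3 Slc26a4-/- arrays lay above all 3 Slc26a4+/+ arrays for 4 probe sets (Lama4, Lama5, Lamb2, Agrn) and below them for 3 (Lamb1 with 2 probe sets, Nid1 with 1), against 8.46% and 9.4% of all probe sets. In the remaining 14 the genotypes overlapped. Because the tissue was measured in bulk, fewer cells of a type and less RNA per cell cannot be told apart for any of these genes.

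**Figure D1:**
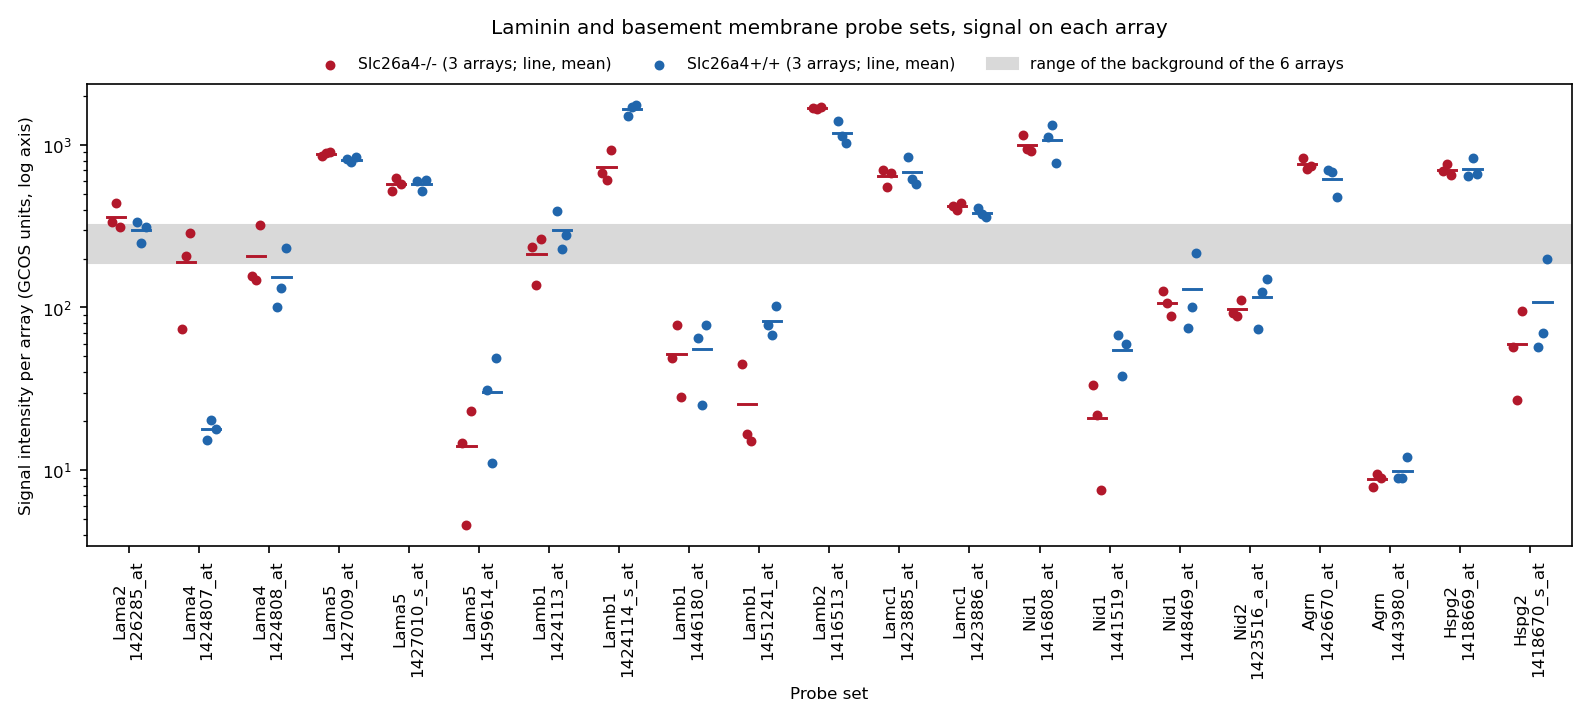
Signal intensity (log axis) of the 21 probe sets on each array, with Slc26a4-/- in red and Slc26a4+/+ in blue (3 arrays each), a line at the mean and a grey band for the range of background over the 6 arrays. Lamb1 1424114_s_at separates the genotypes above the band, and 8 probe sets lie below background on every array.

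The plot of signals by array shows which of these values could be measured. A probe set above background on all 6 arrays was found for 7 genes (Lama5, Lamb1, Lamb2, Lamc1, Nid1, Agrn, Hspg2), with 9 such probe sets in all, of which 8 did not pass the test. A further 4 were above background on some arrays and 8 on none. Nid2 had only a probe set of the last kind. Where both genotypes were below background no fold change is given, and where 1 genotype was, a lower bound on the fold is given if it exceeds 1. Signals of different probe sets depend on their probes and were not set against each other as levels.

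The 3 α chains determine which cell receptors a laminin binds. Lama2, the α2 chain of the laminins around muscle fibres and Schwann cells, gave 334.9, 439.3 and 310.8 in Slc26a4-/-, against 337.5, 250.7 and 312.7 in Slc26a4+/+ (361.7 ± 68.3 and 300.3 ± 44.7, SD, n = 3 each). The genotypes overlapped, with a log2 fold change of 0.26 (95% confidence interval -0.25 to 0.78, limma, adjusted p = 0.725), and 2 of the 3 Slc26a4+/+ arrays were below background. Lama5, the α5 chain found in most mature epithelial and vascular basement membranes, was measured by 2 probe sets above background. The first, 1427009_at, gave 850.2, 889.2 and 906 in Slc26a4-/-, against 818.7, 779.5 and 837 in Slc26a4+/+. Every Slc26a4-/- array was above every Slc26a4+/+ array, by a small margin (log2 fold change 0.12, 95% confidence interval -0.20 to 0.44, limma, adjusted p = 0.809). The second, 1427010_s_at, gave 521.7, 625.7 and 575.6 in Slc26a4-/-, against 599.1, 521.9 and 606.2 in Slc26a4+/+, which overlapped (log2 fold change -0.0042, 95% confidence interval -0.38 to 0.37, limma, adjusted p = 0.995). The remaining probe set, 1459614_at, was below background on all arrays.

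Lama4, the α4 chain of the laminins of endothelial and mesenchymal cells, is the member called higher. Its probe set 1424807_at gave 73.4, 207 and 289 in Slc26a4-/-, against 15.3, 20.4 and 17.8 in Slc26a4+/+ (189.8 ± 108.8 and 17.8 ± 2.55, SD, n = 3 each). The genotypes did not overlap and the Slc26a4-/- arrays spread widely, with replicate 1 below the background of its own array. The test passed (limma, adjusted p = 0.0290), but all Slc26a4+/+ arrays were below background and the Slc26a4-/- mean was below the signal that could be detected there, so no fold is given. The call was lost without Slc26a4-/- replicate 2 (adjusted p = 0.169) or replicate 3 (adjusted p = 0.206) and without Slc26a4+/+ replicate 2 (adjusted p = 0.0810), with a pseudocount of 64 (adjusted p = 0.0671), without the variance trend (adjusted p = 0.120) and with Xist as a covariate (adjusted p = 0.640). The other Lama4 probe set, 1424808_at, is not listed under the same sequence record in the platform annotation. It gave 156, 147.1 and 320.5 in Slc26a4-/-, against 100, 132 and 231.7 in Slc26a4+/+, with overlap (limma, adjusted p = 0.766), and only 1 array, of Slc26a4-/-, was above background.

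Of the 2 β chains, Lamb1 was lower in Slc26a4-/- and passed the test, while Lamb2 was higher on every Slc26a4-/- array and did not pass. The β1 chain is the widely expressed one, and the β2 chain is known from the neuromuscular junction, the kidney glomerulus and mature vessels. Lamb1 1424114_s_at gave 669.7, 610 and 924.5 in Slc26a4-/-, against 1499.7, 1712.7 and 1745.4 in Slc26a4+/+. The highest Slc26a4-/- array lay below the lowest Slc26a4+/+ array. The means were 734.7 ± 167.0 in Slc26a4-/-, against 1652.6 ± 133.4 in Slc26a4+/+ (SD, n = 3 each). From the means of log2 signal, the log2 fold change was -1.19 ± 0.18, or 0.438-fold (SE, 95% confidence interval -1.60 to -0.78, limma, adjusted p = 0.0109). Over the alternatives the log2 fold change stayed between -1.37 and -1.07. The adjusted p was 0.0705 without Slc26a4-/- replicate 1, 0.0684 without Slc26a4-/- replicate 2 and 0.0589 without Slc26a4+/+ replicate 2, 0.169 without the variance trend and 0.379 with Xist as a covariate for sex. With Xist the log2 fold change was -1.33 and its SE rose to 0.35. With the Gapdh ratio as a covariate the log2 fold change was -1.14 and the call was kept (adjusted p = 0.0170).

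None of the other Lamb1 probe sets passed the test. The platform annotation lists 3 of the 4 under the same sequence record, which does not show that their probes cover the same stretch of it. The ending _s_at marks probes that match more than 1 transcript. Under the same record, 1424113_at gave 234.5, 138.1 and 263.3 in Slc26a4-/-, against 389.4, 228.1 and 279.1 in Slc26a4+/+, close to background. These overlapped, with a log2 fold change of -0.51 (95% confidence interval -1.23 to 0.20, limma, adjusted p = 0.595). The third, 1451241_at, gave 44.7, 16.6 and 15.2 in Slc26a4-/-, against 78.5, 67.8 and 102.5 in Slc26a4+/+. All 6 values were below background, although those of Slc26a4-/- were below all those of Slc26a4+/+ (limma, adjusted p = 0.216). The fourth, 1446180_at, does not share this record. It was between 28 and 77.8 in Slc26a4-/- and between 25 and 78.2 in Slc26a4+/+, below background throughout. The fall of Lamb1 therefore rests on 1 probe set.

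Lamb2 1416513_at gave 1686.2, 1648.8 and 1697.9 in Slc26a4-/-, against 1398.3, 1133.9 and 1020.2 in Slc26a4+/+. The Slc26a4-/- arrays were nearly alike and all above the Slc26a4+/+ arrays, with means of 1677.6 ± 25.6 and 1184.1 ± 194.0 (SD, n = 3 each) and a log2 fold change of 0.52 ± 0.15 (SE, 95% confidence interval 0.17 to 0.86). This missed the threshold (limma, adjusted p = 0.173, unadjusted p = 0.0075). It passed in only 2 of 18 alternatives. These were the fit without Slc26a4+/+ replicate 1 (log2 fold change 0.64, limma, adjusted p = 0.0299) and array weights (0.55, adjusted p = 0.0102). With the Gapdh ratio as a covariate the log2 fold change was 0.39 and did not pass (limma, adjusted p = 0.116). The log2 ratio of Lamb2 to Lamb1 signal within an array does not depend on how that array was scaled. It was 1.33, 1.43 and 0.88 on the Slc26a4-/- arrays, against -0.10, -0.59 and -0.77 on the Slc26a4+/+ arrays, or 1.21 ± 0.30 and -0.49 ± 0.35 (SD, n = 3 each). The genotypes differed by 1.70 log2 units in this ratio, which is given as a description with no test since the pair was chosen after its values were seen. Only the change of the ratio between genotypes can be read, not its size within one. RNA integrity and amplification can still affect it. The Gapdh 3′ to 5′ ratio was 3.70, 3.80 and 3.34 on the Slc26a4-/- arrays, against 2.25, 7.19 and 10.5 on the Slc26a4+/+ arrays. As the Gapdh ratio rose, the Lamb2 to Lamb1 ratio fell over the Slc26a4+/+ arrays and rose over the Slc26a4-/- arrays. The part of RNA integrity in the Lamb2 to Lamb1 ratio was not tested.

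**Figure D2:**
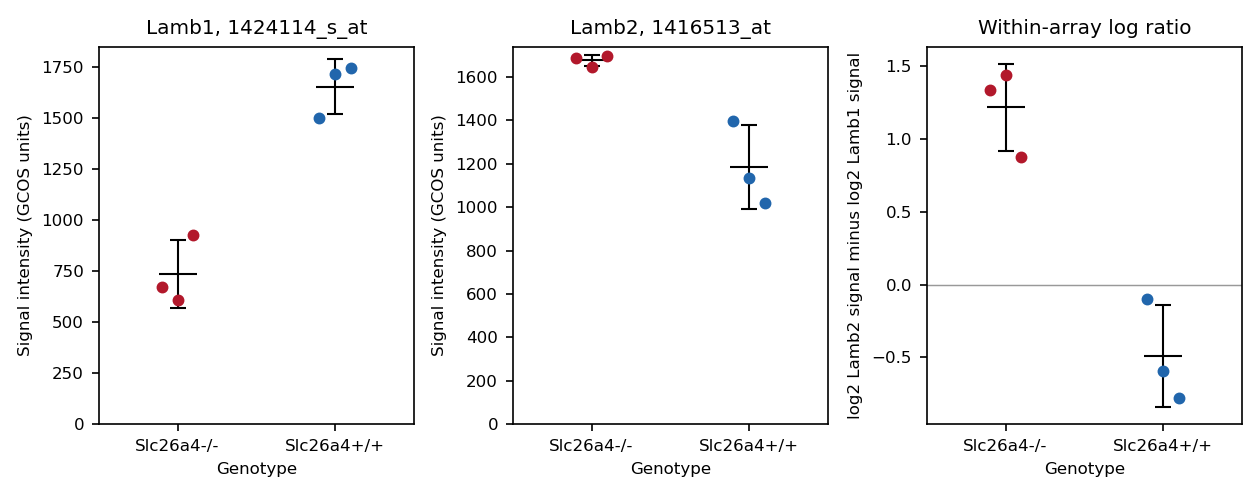
Signal intensity of Lamb1 1424114_s_at (left) and Lamb2 1416513_at (middle) and the log2 ratio of the Lamb2 signal to the Lamb1 signal within each array (right), as points for the 3 arrays of each genotype with mean and SD. Lamb1 is lower and Lamb2 higher on all Slc26a4-/- arrays, and the ratio has a mean of 1.21 in Slc26a4-/- and -0.49 in Slc26a4+/+.

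The promoters of these 2 genes are shown because the Lamb2 to Lamb1 ratio differed between the genotypes on every array. They are RefSeq sequences of build GRCm38.p6, from 250 bases before to 50 bases after the start of the gene, with matches to 3 promoter motifs in capitals. The letters searched, on both strands, were GGGCGG (the GC box), CCAAT and TATAAA.
Lamb1, chr12:31265043-31265342, plus strand: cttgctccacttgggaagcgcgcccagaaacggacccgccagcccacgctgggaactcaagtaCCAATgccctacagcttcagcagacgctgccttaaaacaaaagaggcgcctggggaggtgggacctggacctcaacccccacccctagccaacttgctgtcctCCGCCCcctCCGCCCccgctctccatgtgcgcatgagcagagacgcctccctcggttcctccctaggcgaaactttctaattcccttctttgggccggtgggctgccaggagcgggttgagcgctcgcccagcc
Lamb2, chr9:108479612-108479911, plus strand: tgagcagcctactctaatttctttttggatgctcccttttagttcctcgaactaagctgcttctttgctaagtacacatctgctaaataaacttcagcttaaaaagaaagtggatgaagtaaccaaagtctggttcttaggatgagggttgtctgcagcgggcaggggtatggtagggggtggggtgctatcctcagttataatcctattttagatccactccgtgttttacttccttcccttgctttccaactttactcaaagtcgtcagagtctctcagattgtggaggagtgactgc
The Lamb1 window held 2 GC boxes and 1 CCAAT, and the Lamb2 window held none of the 3. Of all 32851 promoters of this length, 35.7% held the GC box, 37.4% CCAAT and 13.6% TATAAA. A match of letters is a description and not a binding site.

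The γ1 chain, encoded by Lamc1, is part of most laminin trimers. Its probe set 1423885_at gave 704.6, 554 and 667.4 in Slc26a4-/-, against 845, 615.9 and 574.3 in Slc26a4+/+. Its second probe set, 1423886_at, listed under the same sequence record, gave 422.1, 399.5 and 439.6 in Slc26a4-/-, against 409.6, 373.5 and 361 in Slc26a4+/+. The genotypes overlapped on both. The log2 fold changes were -0.066 (95% confidence interval -0.51 to 0.37, limma, adjusted p = 0.934) for the first and 0.14 (95% confidence interval -0.26 to 0.55, limma, adjusted p = 0.824) for the second.

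The nidogens link laminin to type IV collagen. Nid1 1416808_at gave 1149.8, 944.4 and 918.9 in Slc26a4-/-, against 1109.9, 1332.7 and 776.6 in Slc26a4+/+. Both the highest and the lowest values were of Slc26a4+/+ (log2 fold change -0.068, 95% confidence interval -0.53 to 0.40, limma, adjusted p = 0.937). The other Nid1 probe sets, 1448469_at and 1441519_at, were below background on all arrays. The second of these gave 33.2, 21.8 and 7.6 in Slc26a4-/-, against 67.3, 37.7 and 59.6 in Slc26a4+/+, without overlap and without passing the test (limma, adjusted p = 0.401). Nid2 gave 93.1, 88.4 and 111.9 in Slc26a4-/-, against 73.8, 124.3 and 148.9 in Slc26a4+/+, below background throughout, so that no difference was detectable.

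Of the proteoglycans, agrin clusters acetylcholine receptors at the synapse and binds laminins in other basement membranes. Agrn 1426670_at gave 834.4, 707.7 and 737.9 in Slc26a4-/-, against 697.6, 682.2 and 475.1 in Slc26a4+/+. The lowest Slc26a4-/- array was just above the highest Slc26a4+/+ array, and the log2 fold change of 0.32 ± 0.19 (SE, 95% confidence interval -0.11 to 0.75) did not pass the test (limma, adjusted p = 0.586). The second Agrn probe set, 1443980_at, was below background, at most 12 on any array. Hspg2, which encodes perlecan, gave 693.5, 766.4 and 651.8 in Slc26a4-/-, against 642.7, 830.2 and 665.8 in Slc26a4+/+ on 1418669_at. The genotypes overlapped (log2 fold change -0.012, 95% confidence interval -0.39 to 0.37, limma, adjusted p = 0.987). The other Hspg2 probe set, 1418670_s_at, listed under the same sequence record, was below background.

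**Figure D3:**
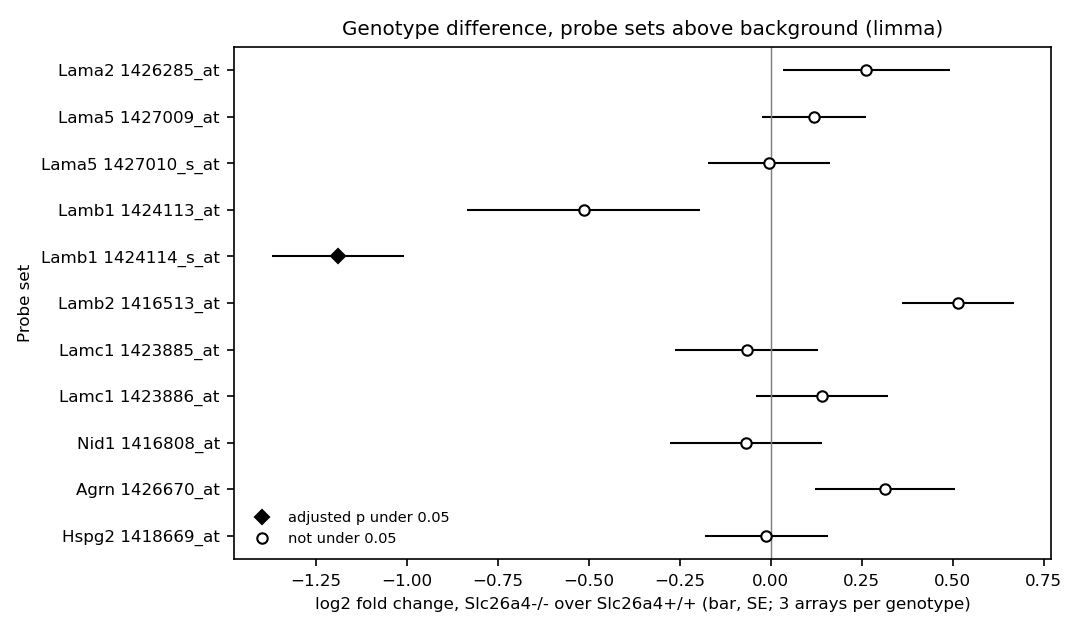
Log2 fold change, Slc26a4-/- over Slc26a4+/+, with its SE for the 11 member probe sets that were above background on at least 1 array of each genotype, with a filled symbol where the adjusted p was under 0.05. Lamb1 1424114_s_at lies at -1.19, and Lamb2 at 0.52 is the highest.

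The plot of fold changes shows that, of the members above background on all 6 arrays, the log2 fold changes other than that of Lamb1 1424114_s_at lay between -0.068 and 0.52. The confidence intervals of Lama5, Lamc1, Nid1, Agrn and Hspg2 contained 0, with upper limits of up to 0.75, that of Agrn.

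Cell type markers were measured beside these genes, since laminins differ between the cells that make them. Of 11 endothelial markers none passed the test, and their summed signal was between 5819 and 6921 on the Slc26a4-/- arrays and between 4143 and 6225 on the Slc26a4+/+ arrays, with Pecam1 and Tie1 below background. Of 8 pericyte and smooth muscle markers none passed, with sums of 8927 to 10926.5 in Slc26a4-/-, against 5999 to 10347 in Slc26a4+/+ and Des below background. Of 8 markers of fibrocytes and other mesenchyme 4 were higher (Col1a2, Col3a1, Dcn, Otos), and the sums were 10058 to 12398 in Slc26a4-/-, against 5948 to 9914 in Slc26a4+/+. The other 4 were not called, with log2 fold changes of 0.21 for Lum, 0.17 for Coch, -0.32 for Pdgfra and -0.59 for Col1a1. Of these 3 lists, the sums overlapped between genotypes for endothelial cells and for pericytes and did not overlap for mesenchyme. The authors took Otos as a marker of the adjacent spiral ligament. By PCR they found a small carry-over between the tissues, larger in Slc26a4-/- than in Slc26a4+/- mice. Its part in the array values was not tested. Of 3 measured Schwann cell markers Pmp22 was higher and Egr2 was below background. Mbp went the other way and was not called (log2 fold change -0.34, limma, adjusted p = 0.501). The sums were 7761 to 8132 in Slc26a4-/-, against 5808 to 6815 in Slc26a4+/+, and Pmp22 had means of 5483 and 3219 in them. Of 8 macrophage markers 6 were higher (Aif1, C1qa, Cd68, Cx3cr1, Lyz2, Ptprc), with sums of 23925 to 25243 in Slc26a4-/-, against 4779 to 6590 in Slc26a4+/+. Of 6 marginal cell markers 2 were lower (Atp13a5, Kcne1), with sums of 28337 to 29801 in Slc26a4-/-, against 40979 to 50550 in Slc26a4+/+. None of the intermediate or basal cell markers passed. The part of these cells in the values of Lamb1 and Lama4 was not tested. By the brightest probe set of each of the 18193 genes, 1.88% were called higher and 0.803% lower.

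The other genes of basement membranes and their receptors were taken from lists, each gene by its brightest probe set. The lists were chosen with earlier results of these data known, so their comparison with all genes is only a description. Of 42 genes measured, 2 were higher (Tinagl1 and Itga7) and 0 lower in Slc26a4-/- (limma), and 18 had an unadjusted p under 0.05, against 14.9% of all 18193 genes. Their median log2 fold change was 0.40, against -0.031 over all 18193 genes, and it was positive for 28 and negative for 14. Over genes above background on at least 1 array of each genotype the median was 0.38 for 30 genes of the lists, against -0.0060 over all 10252.

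Of the remaining laminin chains 4 were measured and none passed the test. The one above background in all Slc26a4-/- arrays was Lamc3, the γ3 chain, at 357.6, 360.4 and 499.1 in Slc26a4-/-, against 272.3, 177.1 and 218 in Slc26a4+/+ (log2 fold change 0.87 ± 0.25, SE, limma, adjusted p = 0.157). Lamb3, the β3 chain of skin-type laminin, gave 185.3, 135.9 and 102.9 in Slc26a4-/-, against 276, 149.8 and 162.1 in Slc26a4+/+ (limma, adjusted p = 0.691). Lama1, the α1 chain of the embryo, and Lama3 were below background on all arrays (limma, adjusted p = 0.716 for Lama1).

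Of 22 other components 1 was higher, with a median log2 fold change of 0.46. Tinagl1, a secreted matrix protein that binds integrins and laminin, gave 3030.7, 3500.7 and 3689.9 in Slc26a4-/-, against 1684.1, 2058.9 and 1755.3 in Slc26a4+/+, without overlap (3407.1 ± 339.4 and 1832.8 ± 199.0, SD, n = 3 each). Its log2 fold change was 0.90 ± 0.14 (SE, limma, adjusted p = 0.0141), and it no longer passed when any 1 Slc26a4-/- array was left out (adjusted p 0.0530 to 0.120). Of the 6 type IV collagen genes, the partners of the nidogens, none passed, and the 4 above background in both genotypes (Col4a1, Col4a2, Col4a4, Col4a5, named outside the rule) had log2 fold changes of 0.12 to 0.81 (limma, adjusted p 0.139 to 0.902). Their other probe sets above background in both genotypes gave -0.030 for Col4a1 1426348_at, 0.24 for Col4a5 1425475_at and 0.95 for Col4a4 1445328_at, none called. Col4a5 lies on a sex chromosome. Sparc, a collagen-binding protein named after its values were seen, was higher on 1416589_at, with 6183.9, 6388.3 and 6162.4 in Slc26a4-/-, against 3930.3, 3778 and 4140.1 in Slc26a4+/+ (log2 fold change 0.66, limma, adjusted p = 0.0274). On its brightest probe set it was not called (0.45, limma, adjusted p = 0.131).

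Of 16 receptors and their linkers 1 was higher, with a median log2 fold change of 0.33. Itga7, the integrin α7 subunit that binds laminin, gave 238.3, 379.6 and 251.3 in Slc26a4-/-, against 29.1, 69.4 and 47.9 in Slc26a4+/+. It was called higher (limma, adjusted p = 0.0146), and the call was lost without any 1 of the Slc26a4-/- arrays (adjusted p 0.0761 to 0.121). All Slc26a4+/+ arrays were below background, and the bound on the fold, taken on means, was 1.10. The Slc26a4-/- signals of replicates 1 and 3 lay below the background of Slc26a4+/+ replicates 2 and 3 (269 and 319). The linkers of the dystroglycan complex gave mixed results by probe set and are named after their values were seen. Sgcb, β-sarcoglycan, was higher on 1436678_at (limma, adjusted p = 0.0191), with 543.5, 433 and 509.7 in Slc26a4-/-, against 193.5, 175 and 95.9 in Slc26a4+/+. The bound on its fold was 1.91. Sgcb was not called on its brightest probe set (log2 fold change 0.75, limma, adjusted p = 0.0689). Utrn, utrophin, was lower on 1426892_at, with 1017, 788 and 764.2 in Slc26a4-/-, against 1563, 1328.5 and 1643.2 in Slc26a4+/+ (log2 fold change -0.83, limma, adjusted p = 0.0408), and not called on its brightest probe set (-0.34, adjusted p = 0.370). The calls of Sparc 1416589_at, Sgcb 1436678_at and Utrn 1426892_at were each lost in 8 of 18 alternatives. For all of them these were the 3 fits without 1 Slc26a4-/- array, the fit without Slc26a4+/+ replicate 2, median centring, no variance trend and Xist as a covariate, and beside these the replicate block for Sparc (adjusted p = 0.0509), quantile normalization for Sgcb (adjusted p = 0.0586) and the fit without Slc26a4+/+ replicate 3 for Utrn (adjusted p = 0.0707). The highest adjusted p was 0.483 for Sparc, 0.590 for Sgcb and 0.763 for Utrn.

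**Figure D4:**
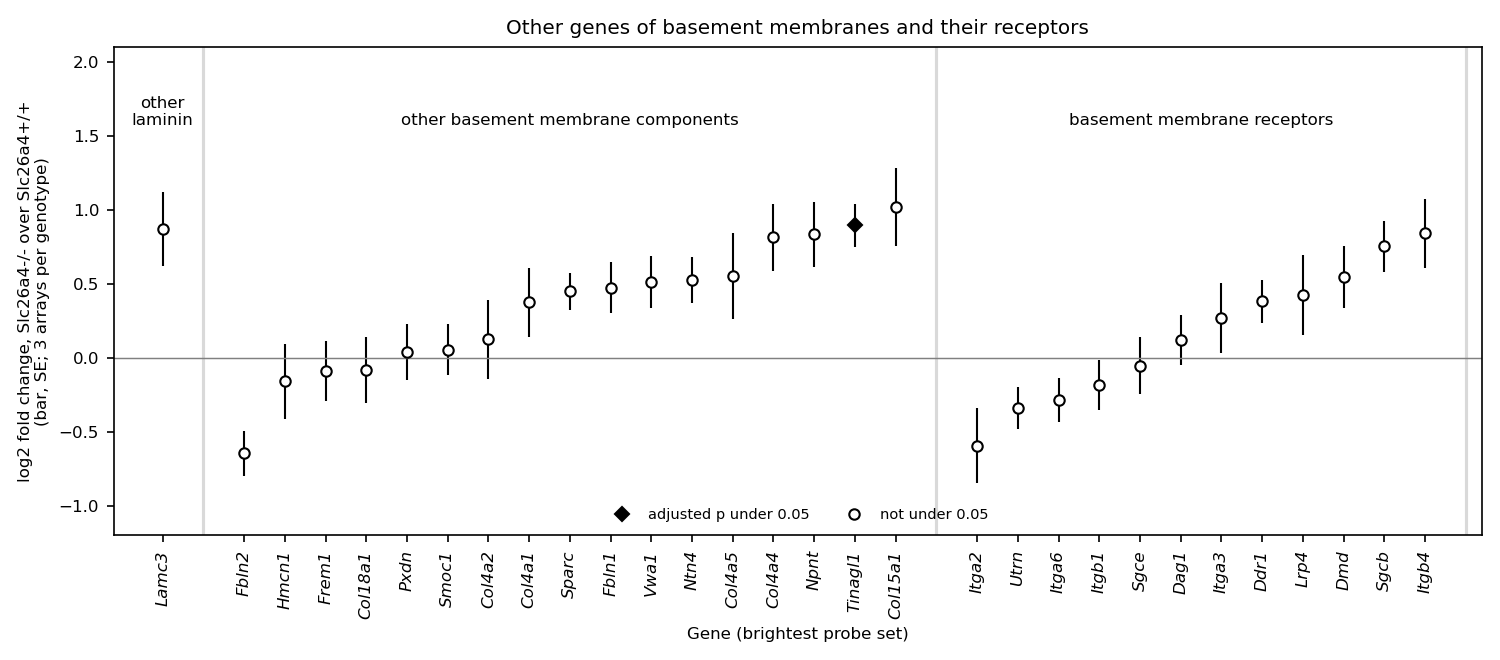
Log2 fold change, Slc26a4-/- over Slc26a4+/+, with its SE for the other laminin chains, other basement membrane components and receptors, by the brightest probe set of each gene; genes with a genotype below background on all its arrays, among them Itga7, are left out. The filled symbol is Tinagl1 at 0.90, the only gene plotted with an adjusted p under 0.05.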

How the data were processed

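Stria vascularis RNA was measured on 6 arrays. The deposited values are linear signal intensities per probe set, which the authors computed with GCOS per the submitters' processing notes; for its version and scaling target, the sources used here give nothing. Array medians were 141, 155 and 154 in Slc26a4-/-, against 140.2, 150.4 and 189 in Slc26a4+/+. Of 45101 probe sets 64 controls were left out. Values under 1 (172) were set to 1, log2 was taken, and genotypes were compared with limma 3.58.1 in R 4.3.3 (lmFit, eBayes with trend), adjusted over all probe sets, with no replicate block and no filter on low values. The script was tested on simulated data. Symbols came from the platform annotation (34945 probe sets with 1 symbol, 932 with several, 9160 with none). All member probe sets are named, and of each list of basement membrane genes those past the threshold, or otherwise the 3 with the smallest p. Markers are named where they passed or lay below background. The other markers of mesenchyme and Schwann cells and the markers of intermediate and basal cells are named outside this rule. Members and lists were chosen with earlier results of these data known. Promoters were found in RefSeq for 7 of 10 members. P-values measure only the spread between these pools. Alternatives covered low values, filters, scaling, the variance model, covariates, the replicate block and leaving out each array.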

Additional observations from a re-analysis of the deposited data

How the results depend on the processing

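The call of Lamb1 1424114_s_at was kept in 13 of 18 alternatives and that of Lama4 1424807_at in 10 of 16, and the direction of both in all of these. The number of probe sets called (778) was 448 with median centring, 114 without the variance trend, 4084 with array weights, 27 with Xist as a covariate, 1231 with the Gapdh ratio as a covariate, 19497 by a ratio of means beyond 1.3 with no test, and 219 to 1714 when 1 array was left out. The methods' t-test, which the methods do not name for the arrays, gave 3980 unadjusted and 0 after Benjamini-Hochberg. It was paired here by replicate number, although the labels do not say that these numbers pair the arrays. Members called higher (1) became 0 with a pseudocount of 64, a mean signal of at least 300, a requirement of 3 arrays above background, no trend, Xist or the adjusted t-test, 2 with array weights, 3 by the ratio and 0 to 2 when 1 array was left out. Members called lower (1) became 0 without the trend, with Xist or by the adjusted t-test, 2 by the unadjusted t-test, 6 by the ratio and 0 to 1 when 1 array was left out. The 2 other genes of the lists became 4 with either filter or with the mean over a gene's probe sets, 0 without the trend, with Xist or by the adjusted t-test, 15 with array weights, 6 with the Gapdh ratio, 7 by the unadjusted t-test, 23 by the ratio and 0 to 7 when 1 array was left out.

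Of the values of single probe sets, none past the threshold changed sign. Signs turned for differences near 0 and, with Xist, for Lamb1 1424113_at (-0.51). With median centring the log2 fold change became 0.068 for Hspg2 1418669_at, 0.076 for Lama5 1427010_s_at, 0.014 for Lamc1 1423885_at and 0.013 for Nid1 1416808_at. With array weights it became 0.10 for Lama5 1427010_s_at and 0.0079 for Lamc1 1423885_at, and with the Gapdh ratio 0.035 for Hspg2 1418669_at. With Xist it became 0.21 for Lama5 1427010_s_at, 0.081 for Lamb1 1424113_at and 0.20 for Lamc1 1423885_at. When 1 array was left out it ranged between -0.082 and 0.10 for Hspg2, -0.073 and 0.063 for Lama5 1427010_s_at, -0.18 and 0.10 for Lamc1 1423885_at and -0.28 and 0.11 for Nid1. The cause was not tested in any of these cases.

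The labels do not say whether the replicate numbers pair the arrays. Deviations from the genotype mean correlated at 0.094, 0.027 and 0.029 for same-numbered arrays. For arrays with different numbers the correlations ran from -0.096 to 0.070. With 3 arrays a genotype these values cannot decide whether the arrays were paired. With the replicate block 832 probe sets were called, 1 member higher and 1 lower, and 2 other genes of the lists. Of the calls of single probe sets it ended that of Sparc 1416589_at (adjusted p = 0.0509) and changed no other.

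Precision is limited by 3 arrays a genotype and by background, below which 8 of the 21 probe sets lay on every array.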
